A study of Mus musculus with 6 samples.

Results

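The core circadian clock loop was described here through 10 genes: the activators Arntl (the gene of BMAL1), Clock and Npas2, the nuclear receptors Nr1d1 and Nr1d2, and the repressors Cry1, Cry2, Per1, Per2 and Per3. They were taken by symbol as named parts of the loop, with earlier results of these libraries known, and all 10 were found among the 22032 genes of the count table. All 10 also passed the filter on low counts, as did 14632 genes in all. The table came from bulk RNA sequencing of temporomandibular joint, the joint between the lower jaw and the skull, of mice aged 10 weeks. One group of 3 libraries carries the label Igf2bp2-KO and the series writes its genotype as Igf2bp2-/-. The other group of 3 carries the label Igf2bp2-WT, and the series calls the mice littermates. Igf2bp2 encodes an RNA-binding protein that recognises m6A marks on mRNA. No source used here gives the deleted part of the allele, the number of animals behind each library or the hour at which tissue was taken.

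The clock is a feedback loop of transcription that runs in nearly every cell with a period of about a day. BMAL1 pairs with CLOCK or NPAS2, binds E-box sequences and activates the Per, Cry and Nr1d genes, and PER and CRY proteins then return to inhibit the pair. The Nr1d genes encode REV-ERB alpha and REV-ERB beta, which compete with ROR receptors for shared elements and repress Arntl. Arntl and Nr1d1 transcripts therefore normally peak at opposite times of the cycle. Bone, cartilage and muscle all run such clocks.

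Libraries held 28551236 to 35094127 counts, of which mitochondrial genes took 85.3% to 90.8%, so that nuclear genes held between 2625472 and 3205190 counts per WT library and between 4604575 and 4899680 per KO library. In the median gene, the difference between KO 1 and KO 3 was below what sampling of read pairs gives (observed over counting variance 0.941), and that between WT 2 and WT 3 was too (0.964). Averaged over genes the ratio was 1.18 for the KO pair and 1.08 for the WT pair, above 1 in both, so not every gene was within that noise. The median gene of each pair differed by less than the sampling noise, and each pair was therefore counted as 1 sample, with n = 2 samples per group. Values are also printed for all 6 libraries, always in the order of library 1, 2 and 3. As the labels do not tie libraries to animals, the p-values measure the spread among these samples alone, and that spread may be technical. Igf2bp2 itself had 38, 20 and 24 counts in the WT libraries and 13, 14 and 10 in the KO libraries (log2 fold change -1.80, FDR 0.00589), a call lost in the DESeq2 Wald test (FDR 0.0557). Markers of several tissues were present: summed skeletal muscle markers stood at 6390 to 7370 CPM (library-size-scaled counts, with trimmed mean of M-values factors, TMM) in KO and 4290 to 5790 in WT. Among 8 chondrocyte markers, 7 were listed, and Col2a1, the main cartilage collagen, was at 1.25 CPM in KO and 1.47 in WT. The most abundant chondrocyte marker, Col11a2, was at 33.9 CPM in KO and 7.63 in WT, and the synovial marker Prg4, the joint lubricant, was at 46.0 and 11.3.

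Of the 10 clock loop genes, 4 were higher and 3 lower in KO at a false discovery rate (FDR) under 0.05, adjusted over all genes in the quasi-likelihood test of edgeR. Clock, Npas2, Cry1 and Per2 rose, and Nr1d1, Nr1d2 and Per3 fell. Arntl, Cry2 and Per1 did not pass. Over all tested genes 17.6% were called, 9.15% higher and 8.48% lower. KO and WT libraries did not overlap for 9 of the 10 genes, 5 of them higher and 4 lower in KO, against 38.4% of all tested genes (19.2% higher and 19.1% lower); Per1 overlapped. The median absolute log2 fold change was 0.63 for the 10 genes and 0.29 for all tested genes, and the signed medians were 0.22 and -0.01.

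**Figure D1:**
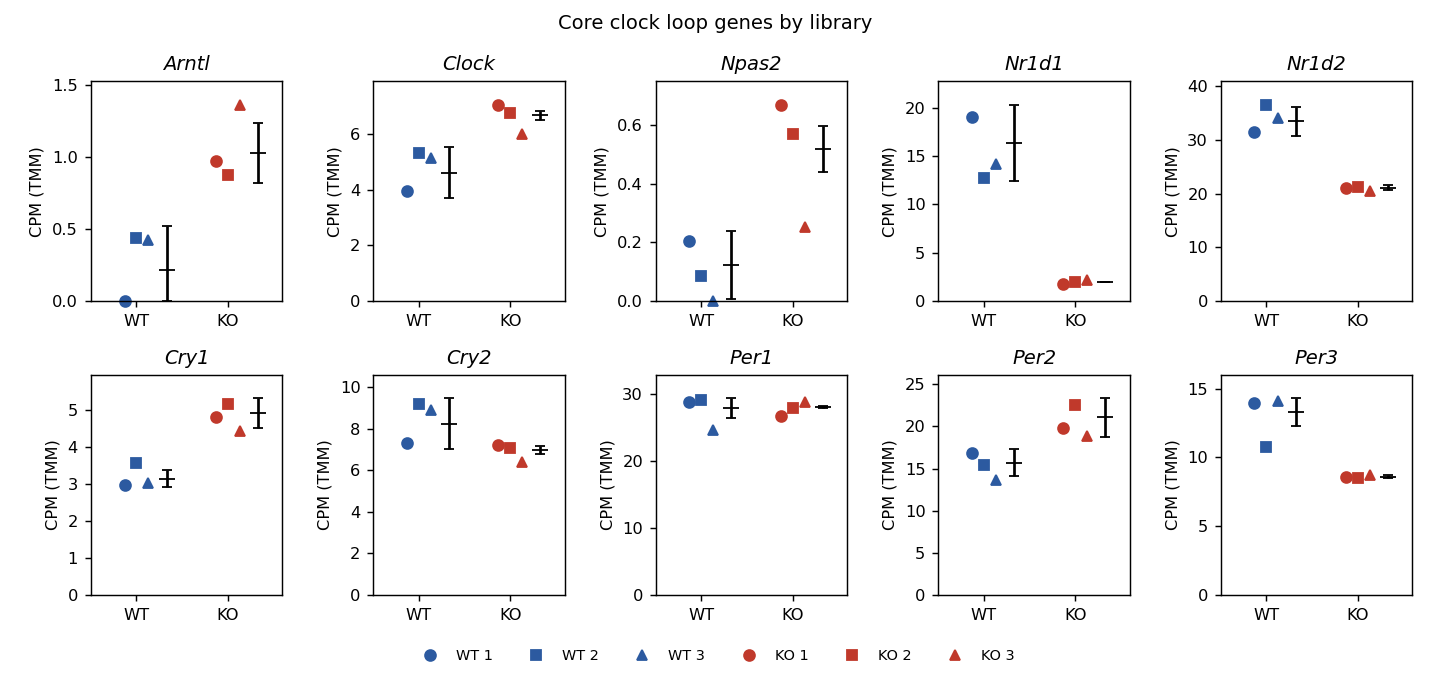
CPM of the 10 clock loop genes in each library, each panel on its own linear axis from 0, with WT in blue and KO in red and 1 symbol per library number. The black bar gives each group's mean ± SD (n = 2 samples), cut at 0 for Arntl. Nr1d1 lies at 12.8 CPM or above in WT and at 2.17 or below in KO, while the Per1 libraries of both groups lie between 24.6 and 29.1.

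Per length of transcript, the activators were the least abundant members in WT. Clock encodes a DNA-binding partner of BMAL1 and was the most abundant of the 3. It had 274, 284 and 237 counts in the KO libraries, against 116, 122 and 132 in the WT libraries, or 7.04, 6.73 and 5.99 CPM against 3.95, 5.32 and 5.12. Every KO library was above every WT library, and WT 1 was the lowest. Clock rose by 0.51 on the log2 scale (SE 0.16, FDR 0.0427), 1.43-fold. It did not pass when KO 1, KO 2, WT 1 or WT 3 was left out (FDR 0.0869, 0.245, 0.157 and 0.0549), by the DESeq2 Wald test (0.241) or with a stricter filter of 50 counts in 3 libraries (0.0502). Leaving out KO 2 or WT 1 leaves that group with 1 summed sample, which is assumed to vary like the samples of the other group.

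Npas2, the paralog that can stand in for Clock, had 26, 24 and 10 counts in the KO libraries, against 6, 2 and 0 in the WT libraries. In CPM these were 0.668, 0.569 and 0.253 against 0.204, 0.0872 and 0, where 0 counts allow up to 3. KO 3 lay much nearer to WT 1 than to the other KO libraries. Npas2 rose by 2.22 on the log2 scale (95% interval 0.79 to 3.66, FDR 0.0337), the largest increase of the 10. It rests on 60 counts in KO and 8 in WT. Without WT 1, and so with 1 summed WT sample, the value was 3.57, and Npas2 did not pass when KO 1, KO 2, WT 2 or WT 3 was left out (FDR 0.103, 0.247, 0.0743 and 0.0713) or by the Wald test (0.243).

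Arntl, the activator whose loss alone stops the clock, had 38, 37 and 54 counts in the KO libraries, against 0, 10 and 11 in the WT libraries. These are 0.976, 0.876 and 1.37 CPM in KO and 0, 0.436 and 0.427 in WT, so WT 1 stood apart from WT 2 and WT 3 and all KO libraries were higher. The log2 difference was 2.02 (95% interval 0.14 to 3.91), with an FDR of 0.141, and Arntl was not called. Without WT 1, and so with 1 summed WT sample, the difference was 1.28 (FDR 0.057). It passed with the 6 libraries as separate samples (1.95, FDR 0.0328), where near-identical pairs count as independent, and with a replicate block (FDR 0.0375). It also passed without a filter on low counts (2.04, FDR 5.55e-05). In that edgeR fit the FDR of Nr1d1 was far smaller too, at 1.06e-81 against 4.76e-07 with the filter, for a similar fold change. By the DESeq2 Wald test Arntl did not pass (FDR 0.769), and it passed in 3 of the 12 other settings in all. The direction of Arntl was the same in all 12 other settings that tested it. Exons of an antisense gene absent from the count table share 33 bases with those of Arntl.

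The reference sequence around 1 of the 2 Arntl starts holds a half-site of the kind that ROR and REV-ERB receptors bind, and so is shown here. RefSeq gives 300-base windows, from 250 bases before to 50 after a start site, for 9 of the 10 genes, with 13 windows in all and none for Per2. The other Arntl window (chr7:113207215-113207514) held none of the motifs searched. The Arntl window below is from build GRCm38.p6 (chr7:113207261-113207560, plus strand), with the match to TAGGTCA in capitals.
Arntl: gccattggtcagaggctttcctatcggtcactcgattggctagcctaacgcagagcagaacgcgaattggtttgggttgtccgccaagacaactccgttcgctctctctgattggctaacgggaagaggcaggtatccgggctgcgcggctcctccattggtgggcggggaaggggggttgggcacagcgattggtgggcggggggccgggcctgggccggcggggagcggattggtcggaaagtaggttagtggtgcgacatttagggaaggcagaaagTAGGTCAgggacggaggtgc
TAGGTCA lies at bases 281 to 287, counted from the 5' end of the window, and contains the shorter half-site AGGTCA. On either strand TAGGTCA was found in 1 of the 13 clock windows and in 2.61% of 32841 promoter windows of this length, and AGGTCA in 4 (Arntl, Clock, Nr1d2 and Per1) and 16.3%.

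Nr1d1 had the largest change of the 10 genes. It encodes REV-ERB alpha, the repressor of Arntl, and had 71, 83 and 86 counts in the KO libraries, against 560, 293 and 366 in the WT libraries. In CPM it stood at 1.82, 1.97 and 2.17 in KO and at 19.1, 12.8 and 14.2 in WT. The KO libraries lay close together and the WT libraries spread more widely, with WT 1 the highest. Nr1d1 fell by 3.03 on the log2 scale (SE 0.18, FDR 4.76e-07), which makes it 8.15-fold lower in KO and places its absolute change above that of 98.9% of tested genes. It passed in all 13 other settings, with values from -3.10 to -2.76.

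Exons of Nr1d1 share 263 bases with exons of Thra, a thyroid hormone receptor gene on the opposite strand, in the GENCODE annotation of GRCm38. No source used here gives the strand setting of the counting, so reads from the shared stretch cannot be assigned to one of the 2 genes. Thra also fell, from 27.5 ± 3.10 to 13.4 ± 1.35 CPM (log2 fold change -1.05, SE 0.13, FDR 5.68e-05). Its decrease was smaller than that of Nr1d1, and how much it adds to the Nr1d1 value was not tested.

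Nr1d2 encodes REV-ERB beta, which overlaps REV-ERB alpha in function. It had 817, 900 and 812 counts in the KO libraries, against 922, 838 and 875 in the WT libraries, or 21.0, 21.3 and 20.5 CPM against 31.4, 36.5 and 34.0. The groups did not overlap. Raw counts were similar in both groups, and the difference in CPM comes with the smaller nuclear totals of the WT libraries. Nr1d2 fell by 0.66 on the log2 scale (SE 0.11, FDR 0.0011), and this call was lost only without KO 2 among the 13 settings (-0.68, FDR 0.0542).

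The Nr1d1 window (chr11:98775328-98775627, minus strand) is shown with the gene's only match to the 6 motifs searched, the E-box variant CACGTT, in capitals and read from the other strand.
Nr1d1: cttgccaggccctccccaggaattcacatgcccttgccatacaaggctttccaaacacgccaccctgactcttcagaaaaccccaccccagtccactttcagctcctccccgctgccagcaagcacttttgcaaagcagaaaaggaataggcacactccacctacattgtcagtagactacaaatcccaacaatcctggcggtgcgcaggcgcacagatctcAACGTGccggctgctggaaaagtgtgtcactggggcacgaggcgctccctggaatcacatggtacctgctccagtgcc
The match covers bases 223 to 228. CACGTT was found in 3 of the 13 clock windows (Cry1, Cry2 and Nr1d1) and in 4.69% of all windows.

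The cryptochromes differed from each other. Cry1, a strong inhibitor of the BMAL1 complex, had 187, 218 and 175 counts in the KO libraries, against 87, 82 and 78 in the WT libraries, or 4.80, 5.16 and 4.42 CPM against 2.96, 3.58 and 3.03. All KO libraries were above all WT libraries. Cry1 rose by 0.63 on the log2 scale (SE 0.17, FDR 0.0179), 1.55-fold, and it did not pass without KO 2 (FDR 0.179) or by the Wald test (0.164). Cry2, the second cryptochrome, had 281, 298 and 254 counts in KO and 215, 211 and 229 in WT. Its CPM values were 7.22, 7.06 and 6.42 in KO and 7.32, 9.20 and 8.89 in WT, so the lowest WT library lay just above the highest KO library. The log2 difference of Cry2 was -0.25 (95% interval -0.55 to 0.06, FDR 0.265), and it passed in none of the 13 other settings. A noncoding gene overlaps 295 exon bases of Cry2 on the other strand and had at most 2 counts in any library. As the strand setting is not given, reads from that stretch cannot be assigned either.

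The Cry1 window (chr10:85185005-85185304, minus strand) held both E-box forms within a short stretch and is shown with them in capitals.
Cry1: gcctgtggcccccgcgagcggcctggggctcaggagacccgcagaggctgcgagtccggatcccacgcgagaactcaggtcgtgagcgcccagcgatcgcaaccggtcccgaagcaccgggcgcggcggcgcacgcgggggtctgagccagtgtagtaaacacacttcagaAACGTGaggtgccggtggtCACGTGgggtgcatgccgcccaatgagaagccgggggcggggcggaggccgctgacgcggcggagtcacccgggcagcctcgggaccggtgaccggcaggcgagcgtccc
The variant CACGTT, read from the other strand, lies at bases 172 to 177 and the E-box CACGTG at bases 191 to 196. CACGTG, which reads alike on both strands, was found in 2 of the 13 clock windows (Cry1 and Per1) and in 7.15% of all windows.

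The 3 Per genes encode the PERIOD proteins, which bind cryptochromes and carry them to the nucleus, and they went different ways. Per1 had 1039, 1181 and 1139 counts in the KO libraries, against 845, 667 and 634 in the WT libraries, or 26.7, 28.0 and 28.8 CPM against 28.8, 29.1 and 24.6. The groups overlapped fully. The log2 difference was 0.0067 (95% interval -0.23 to 0.25, FDR 0.979), and its sign turned in 3 of the 13 other settings.

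Per2, the gene of a PERIOD protein central to the loop, had 773, 951 and 746 counts in KO and 493, 354 and 350 in WT. In CPM it stood at 19.9, 22.5 and 18.9 in the KO libraries and at 16.8, 15.4 and 13.6 in the WT libraries. The lowest KO library was above the highest WT library. Per2 rose by 0.42 on the log2 scale (SE 0.12, FDR 0.0306), 1.34-fold, a call lost without KO 2 (FDR 0.393), without WT 3 (0.0559) and in the Wald test (0.111).

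Per3, which is not needed for rhythms but follows them closely, had 333, 358 and 346 counts in KO and 409, 246 and 363 in WT. Its CPM values were 8.55, 8.48 and 8.75 in the KO libraries and 13.9, 10.7 and 14.1 in the WT libraries. WT 2 was the lowest of its group and still above every KO library. The raw counts of the groups overlapped, and, as for Nr1d2, the difference in CPM comes with the smaller nuclear totals of the WT libraries. Per3 fell by 0.62 on the log2 scale (SE 0.12, FDR 0.00264), 1.54-fold, and lost its call only without KO 2 (FDR 0.0705).

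Per3 was also the only member whose window held the D-box TTATGTAA, the element bound by the clock output factors DBP, TEF and HLF and by their opponent NFIL3. The window (chr4:151044616-151044915, minus strand) is shown with both matches in capitals.
Per3: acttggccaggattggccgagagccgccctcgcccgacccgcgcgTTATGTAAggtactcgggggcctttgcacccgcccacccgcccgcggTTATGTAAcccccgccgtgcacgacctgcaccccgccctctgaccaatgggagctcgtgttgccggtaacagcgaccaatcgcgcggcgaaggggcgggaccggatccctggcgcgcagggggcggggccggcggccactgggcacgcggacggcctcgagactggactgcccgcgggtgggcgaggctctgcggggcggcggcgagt
They lie at bases 46 to 53 and 93 to 100, and TTATGTAA was found in 0.938% of all windows on either strand. The cAMP response element TGACGTCA was in none of the 13 clock windows and in 1.79% of all windows. A match is a description of the reference sequence and not a measured binding site.

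Counts of different genes were compared only after division by the length of the longest GENCODE transcript of each symbol. In WT the highest levels were those of Nr1d2 (7.18 ± 0.583 CPM per kb, SD, n = 2), Nr1d1 (6.02 ± 1.44) and Per1 (5.97 ± 0.308), and Nr1d1 did not differ from either neighbour beyond its spread. Per2 (2.69 ± 0.282), Per3 (2.22 ± 0.166) and Cry2 (2.07 ± 0.308) followed, the last pair within their spread. Per2 and Per3 could not be ordered in every library, at 2.33 and 2.35 in WT 3. Below them stood Cry1 (1.04 ± 0.0769), Clock (0.473 ± 0.0928), Arntl (0.0543 ± 0.0768) and Npas2 (0.0291 ± 0.0274), and Arntl and Npas2 could not be ordered.

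In KO the order of levels differed mainly through Nr1d1. Per1 was highest (6.00 ± 0.0351 CPM per kb), then Nr1d2 (4.53 ± 0.0866) and Per2 (3.61 ± 0.387). Cry2 (1.75 ± 0.0436), Cry1 (1.62 ± 0.130) and Per3 (1.44 ± 0.0201) followed, with Cry2 and Cry1 within their spread. Cry1 and Per3 were both at 1.46 in KO 3. Nr1d1 (0.733 ± 0.00884), among the highest in WT, now lay next to Clock (0.683 ± 0.0159). In the KO libraries Nr1d1 was at 0.67, 0.723 and 0.799 and Clock at 0.722, 0.69 and 0.615, so they could not be ordered. Arntl (0.258 ± 0.0526) and Npas2 (0.122 ± 0.0184) were again the lowest.

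Ratios within a library do not depend on how libraries are scaled. The ratio of Cry1 to Nr1d1 counts was 2.63, 2.63 and 2.03 in the KO libraries and 0.155, 0.280 and 0.213 in the WT libraries. The ratio of Clock to Nr1d1 was 3.86, 3.42 and 2.76 in KO and 0.207, 0.416 and 0.361 in WT. Arntl to Nr1d1 was 0.535, 0.446 and 0.628 in KO and 0, 0.0341 and 0.0301 in WT. In each of the 3 ratios every KO library was far above every WT library, and all of them share the Nr1d1 counts.

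Ratios between paralogs also differed. Nr1d1 counts per Nr1d2 count were 0.0869, 0.0922 and 0.106 in the KO libraries and 0.607, 0.350 and 0.418 in the WT libraries. Cry1 per Cry2 was 0.665, 0.732 and 0.689 in KO and 0.405, 0.389 and 0.341 in WT. Per3 per Per2 was 0.431, 0.376 and 0.464 in KO and 0.830, 0.695 and 1.04 in WT, and Per1 per Per2 was 1.34, 1.24 and 1.53 in KO and 1.71, 1.88 and 1.81 in WT. The groups did not overlap in any of these 4 ratios. Npas2 per Clock overlapped, at 0.0949, 0.0845 and 0.0422 in KO and 0.0517, 0.0164 and 0 in WT. The ratios are given as a description and were not tested. They combine the member values given above, and no share without overlap was computed for other pairs of genes. Of single tested genes, 38.4% did not overlap.

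**Figure D2:**
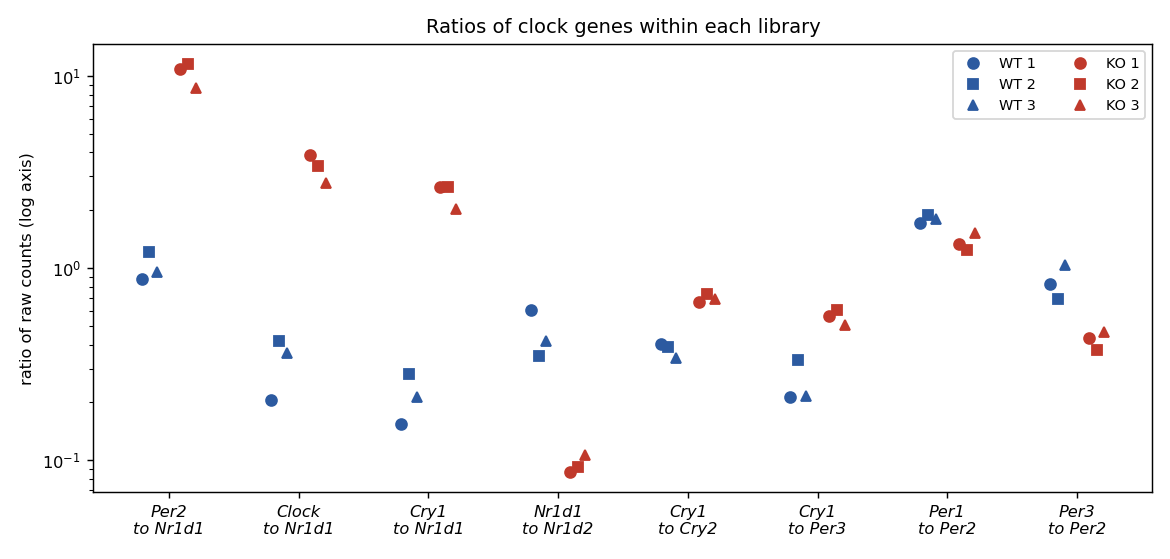
Ratio of raw counts of 2 clock genes within each library, on a log axis, with WT in blue and KO in red and 1 symbol per library number; ratios with Arntl or Npas2 are left out because some libraries have 0 counts. The KO and WT libraries do not overlap in any of the 8 ratios, and those to Nr1d1 are the farthest apart, for example 2.03 to 2.63 against 0.155 to 0.280 for Cry1. The ratios combine the values of single members, and no share without overlap was computed for other pairs of genes.

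Other regulators of the clock moved in both directions. Of 18 listed, 16 were tested, 2 rose and 3 fell, against 9.15% higher and 8.48% lower of all tested genes. Their median log2 fold change was 0.01, near that of all genes. The repressors Bhlhe41 and Ciart, which inhibit the BMAL1 complex, fell by 1.78 (FDR 6.21e-06) and 1.67 (FDR 0.000148) on the log2 scale. Nfil3, a repressor that acts on D-boxes, rose by 1.48 (FDR 0.000349). Bhlhe40, a paralog of Bhlhe41 named outside the rule, fell by 0.69 (FDR 0.0166). Rora and the casein kinase genes Csnk1d and Csnk1e, also named outside the rule, had log2 differences of -0.13, 0.06 and 0.34 and did not pass. Rorb and Fbxl21 had too few counts to test.

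Among 12 clock output genes, 10 were tested, 5 fell and 2 rose, against 8.48% lower and 9.15% higher of all tested genes. Their median log2 fold change was -0.43. Dbp and Hlf, PAR bZIP factors that act on D-boxes, had 4.67 and 3.54 CPM in KO and 34.0 and 12.6 in WT. Tspan4 fell by 0.88 (FDR 0.000204), while Usp54 rose by 1.48 (FDR 8.62e-06). Avp and Gys2 had too few counts to test. The output list was chosen with earlier results of these libraries known, so its direction is no independent evidence.

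**Figure D3:**
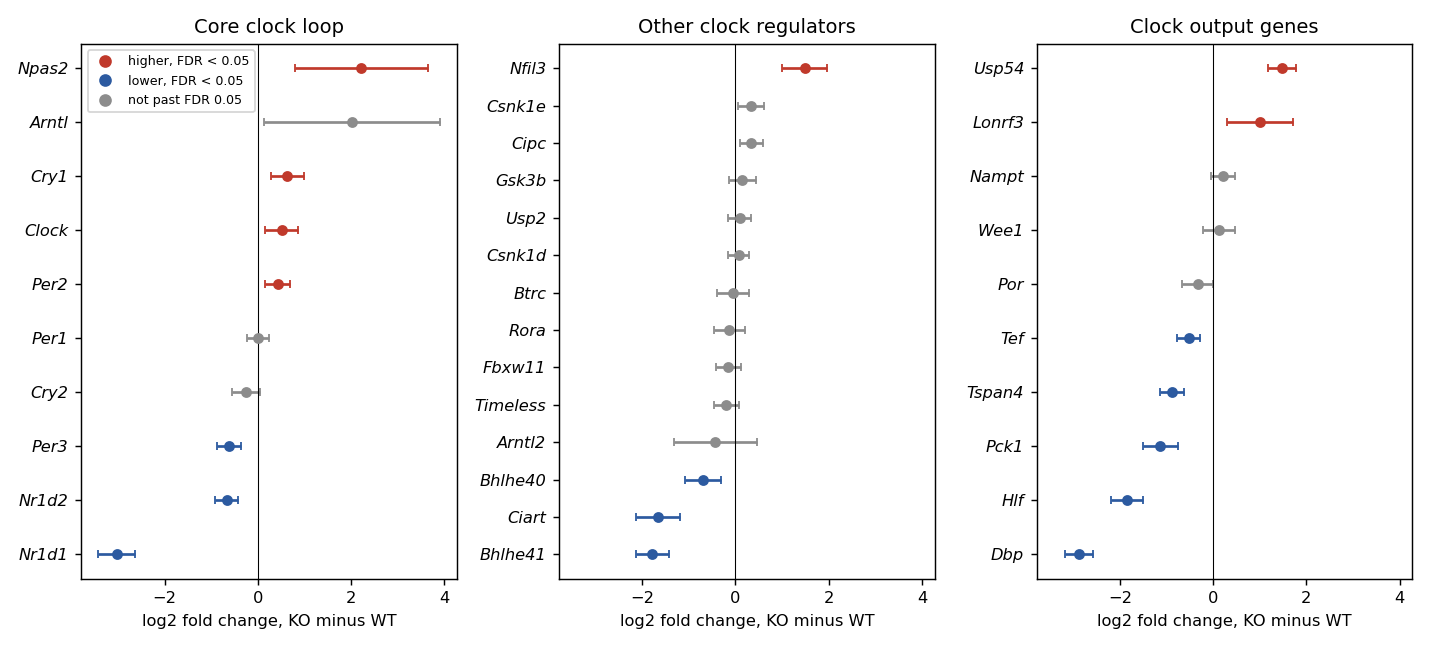
Log2 fold change, KO minus WT, with its 95% interval for the tested clock loop genes (left), 14 of the 16 tested other clock regulators (middle) and the tested clock output genes (right), in red where higher and in blue where lower at an FDR under 0.05 and in grey otherwise. Nr1d1 at -3.03 and Dbp at -2.88 are the lowest values, and Npas2 at 2.22 and Arntl at 2.02 have the widest intervals.

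Per1 is also a direct target of the glucocorticoid receptor. Of 12 glucocorticoid-induced genes 10 rose and 1, Errfi1, fell in the same libraries, against 9.15% higher and 8.48% lower of all tested genes. Their median log2 fold change was 1.20, and their summed level was 605 to 625 CPM in KO and 264 to 276 in WT. Fkbp5 and Zbtb16 rose by 2.76 and 2.71 (FDR 1.12e-08 and 7.76e-09), and Pdk4 and Angptl4 by 3.32 and 1.47 (FDR 1.56e-09 and 2.08e-05). Per1 itself stayed within its spread, at 28.0 ± 0.164 CPM in KO and 27.9 ± 1.44 in WT. Without KO 2, which leaves 1 KO sample, fewer members of the list passed, and so did fewer genes in all. The log2 fold changes of Fkbp5, Zbtb16, Pdk4 and Angptl4 were then 2.754, 2.726, 3.305 and 1.349. How much the changes in this list contribute to the clock values was not tested.

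Summed levels of cell type markers also differed between the groups. Over all tested genes 9.15% were called higher and 8.48% lower. All 9 tested salivary gland markers rose, with summed levels of 514 to 543 CPM in KO and 40.9 to 44.3 in WT, Bpifa2 being the most abundant (266 against 21.2 CPM). All 8 tested neuron markers also rose (26.6 to 31.4 against 3.74 to 5.84 CPM, most abundant Stmn2), and Th was too low to test. All 8 Schwann cell and myelin markers fell (476 to 490 against 1400 to 1440 CPM), as did 6 of 7 macrophage markers (49.7 to 52.3 against 80.4 to 97.9, most abundant Lyz2). For skeletal muscle 4 of 10 markers rose, and the most abundant, Ckm, did not pass. In bulk tissue fewer cells of a type and less RNA per cell cannot be told apart, and the part of these differences in the clock values was not tested.

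Other lists are to be read beside the same shares of all tested genes (9.15% higher and 8.48% lower), and not all of them differed. Olfactory markers had 4 of 6 lower (2.80 to 3.42 against 17.9 to 20.1 CPM, most abundant Obp2a), adipocyte markers 4 of 5 tested lower (10.5 to 11.3 against 27.4 to 29.3, Cfd) and osteoclast markers 3 of 4 tested lower (11.9 to 13.8 against 21.8 to 24.8, Ctsk). Osteoblast and osteocyte markers had 3 of 8 higher and 1 lower (573 to 638 against 276 to 318, Col1a1), synovial markers 2 of 4 tested higher (71.1 to 78.3 against 40.1 to 43.1, Prg4) and chondrocyte markers 1 of 6 tested higher (41.1 to 48.2 against 17.2 to 22.5, Col11a2). The median log2 fold changes of the osteoblast and chondrocyte lists were -0.11 and -0.25, so their higher sums in KO go with Col1a1 (528 against 245 CPM) and Col11a2. The higher synovial sum in KO goes with Prg4 (46.0 against 11.3 CPM). Htra4 (2.01 against 0.498) also rose, while Clic5 (21.5 against 22.8) and Cd55 (5.76 against 7.43) did not pass. Of the 5 erythroid markers 0 passed by edgeR, 0 had an unadjusted p under 0.05 and 0 passed by the Wald test (233 to 298 against 268 to 358, Hbb-bs). No listed marker that is in the table was at 0 in every library.

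The number of clock loop genes called depended on single libraries. Without KO 2, which leaves 1 KO sample assumed to vary like the WT samples, only Nr1d1 passed (7.35% of all tested genes were then called), and without WT 3 there were 4 calls (16.7%). The DESeq2 Wald test called 3, Nr1d1, Nr1d2 and Per3 (8.54% of genes), while 6 separate libraries gave 8, with Arntl added (25.0%).

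**Figure D4:**
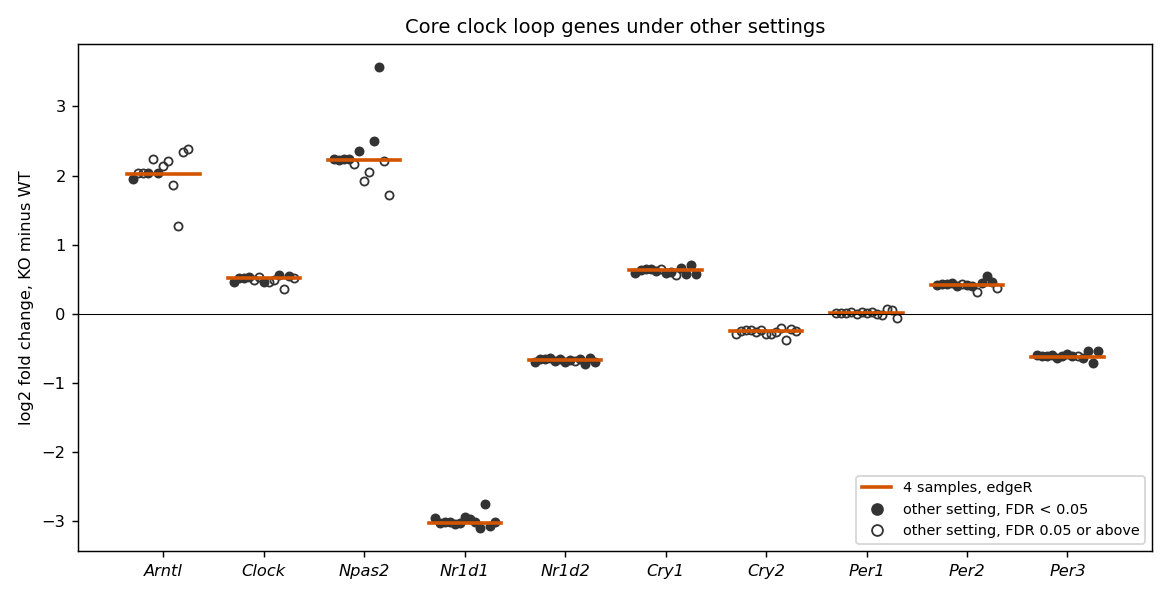
Log2 fold change, KO minus WT, of each clock loop gene in the fit on 4 samples (orange line) and under the other settings (circles, filled where the FDR is under 0.05). Nr1d1 passes in all 13, Cry2 and Per1 in none, and the values of Arntl and Npas2 range most widely, from 1.28 to 2.38 and from 1.72 to 3.57.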

How the data were processed

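Poly(A) RNA of temporomandibular joint was sequenced in 3 KO and 3 WT libraries, grouped by sample title. Per the submitters' processing notes, the tools include HISAT2 2.1.0 and StringTie 2.1.5 and the build is mm39; no source used here gives the annotation, the strand setting or the rule for shared reads. The authors deposited raw read counts per gene symbol, not normalized.

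Within each group, library pairs with a median ratio of observed to counting variance under 1.1 were summed (nuclear genes with at least 20 summed counts, 2 counts per read pair). Counts were fitted with the robust quasi-likelihood model of edgeR 4.0.16 in R 4.3.3 (filterByExpr with a minimum count of 10, TMM factors, Benjamini-Hochberg over all tested genes). SEs are the absolute log2 fold change over the square root of F. The script was tested on simulated data. Other settings were DESeq2 1.42.0 (Wald test and size factors), nuclear genes only, 2 filters, 6 separate libraries, these with a replicate block, and leaving out each library. The members, lists, tests and the limit of 1.1 were chosen with earlier results of these data known. Named genes were the members, Igf2bp2, up to 4 of smallest p in each pathway list, the most abundant marker of each cell type, and the 3 genes most like Arntl and Nr1d1; others are said to be outside the rule, and a few that it takes are not reported here. Thra, Col2a1, Errfi1, Avp, Gys2, Rorb, Fbxl21 and Th were named outside it. Promoter windows are RefSeq's, build GRCm38.p6. Count floors cover counting error only, as the libraries carry no molecular identifiers.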

Additional observations from a re-analysis of the deposited data

How the results depend on the processing

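Of the settings tried, the DESeq2 Wald test called 1371 genes in all against 2580, and 3 clock loop genes against 7. Leaving out 1 library in turn gave 1149 to 2434 genes, 1 to 7 clock loop genes, 4 to 5 other regulators, 5 to 7 output genes and 7 to 11 glucocorticoid-induced genes, the lowest clock loop and glucocorticoid counts without KO 2. The cause was not tested. Per1 turned sign with the filter of 50 counts (-0.0083) and ranged from -0.057 to 0.072 when 1 library was left out. The other members kept their direction in every setting that tested them. Arntl and Npas2 were not tested with the filter of 50 counts. Libraries with the same replicate number did not deviate together (correlations of -0.0325, -0.0889 and 0.0311). The near-identical pairs leave few independent deviations, so this check cannot exclude that the numbers pair libraries. With the replicate block, 6 separate libraries gave 2941 genes and 8 clock loop genes, Arntl included (FDR 0.0375), against 3452 and 8 without the block. No scaling moved the median of all genes by over 0.1. Depth limits Arntl and Npas2, with 21 and 8 counts over the WT libraries.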

Other observations

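The genes whose CPM followed Arntl most closely over the 6 libraries, on a log2 scale, were Hey2, Uchl5 and Tmx1 (Pearson r 0.998, 0.995 and 0.994), and 120 of 14631 tested genes had an r above 0.95. None of the 3 passed the test between KO and WT (edgeR FDR 0.166, 0.218 and 0.124). For Nr1d1 they were Cxxc5, Bpifb9a and Mbp (r 0.999, 0.998 and 0.997), with 656 genes above 0.95. These 3 were lower in KO, with log2 fold changes of -0.93, -2.40 and -1.09. The libraries fall into 2 groups of 3, 2 pairs of them nearly identical, so such values describe these libraries and are given without a test.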
